A study of Mus musculus with 12 samples.

Results

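Transcript levels of 10 genes were followed across 12 liver and lung libraries from *Man1a2* WT and null pups: *Atf4*, 8 of its amino acid and stress targets (*Ddit3*, *Trib3*, *Sesn2*, *Chac1*, *Asns*, *Psat1*, *Phgdh* and *Fgf21*) and *Inhbe*. All 10 were found among the 24421 rows of the count tables. The set was chosen by gene symbol around the ATF4 pathway, and *Inhbe* was selected on its lower level in null liver. The null against WT liver values of these genes are therefore given as a description, and no p is printed for them. The calls in that contrast are counted in the main fit and in its alternatives. The share of all genes called stands beside the first counts, and nothing is read from any of them. WT mice were *Man1a2* +/+ and null mice *Man1a2* -/-, born to heterozygous parents that carry the *Man1a2* tm1.1Ahe allele, in which exon 2 of the gene is deleted. All 4 groups were untreated newborns, tissue was taken within an hour of birth, and each library averages over the cell types of the liver or lung tissue used. There were 3 libraries of each genotype and tissue and 12 in all, from 3 mice of each genotype.

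ATF4 is the transcription factor at the end of the integrated stress response. Kinases that sense amino acid shortage, misfolded protein in the endoplasmic reticulum, haem shortage or viral RNA phosphorylate the translation factor eIF2alpha, general protein synthesis slows, and *Atf4* mRNA is translated better, so the factor's activity can change with little change in its mRNA. ATF4 then raises genes that make, import and charge amino acids and genes that feed back on the pathway. In the liver, its targets include *Fgf21* and, in cultured hepatocytes, *Inhbe*, which both code for secreted proteins. *Man1a2* codes for a Golgi mannosidase that trims the N-linked glycans of secreted and membrane proteins.

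Factors of the ATF4 family bind with a CCAAT/enhancer-binding partner to a composite element whose core reads TGATGNAA, and that core was searched, on both strands, in the 250 bases before the start site of each gene in the RefSeq promoter table (GRCm38.p6). All 10 genes had at least 1 window there. The core was present before the start site of *Chac1*, *Asns*, *Fgf21* and *Inhbe*, and was not found in the windows of the other 6 genes. Of all 32851 promoter windows, 3.45% held the core and 0.791% held its form TGATGCAA. The genes were chosen around the ATF4 pathway, so nothing is read from the share among them. Sequence outside the windows was not searched, which for *Psat1* leaves out the GENCODE start, 22278 bases upstream of a RefSeq start. The 4 stretches of 30 bases are shown because they put *Inhbe* and *Fgf21*, the pair that was lower in null liver, beside *Asns* and *Chac1*, which were higher. Each is written 5′ to 3′ on the strand of its gene with the matched core in capitals.

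Inhbe: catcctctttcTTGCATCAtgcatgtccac

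Fgf21: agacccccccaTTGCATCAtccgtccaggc

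Chac1: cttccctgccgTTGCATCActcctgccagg

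Asns: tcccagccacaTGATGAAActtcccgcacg

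The *Inhbe* stretch lies at chr10:127352011-127352040 on the minus strand, with the core starting 181 bases before the RefSeq start site. GENCODE M21 starts *Inhbe* 2563 bases further upstream, so this stretch is inside the gene in that annotation. The *Fgf21* stretch is at chr7:45615611-45615640, minus strand, with the core 139 bases before the start. The *Chac1* stretch is at chr2:119351038-119351067, plus strand, with the core 193 bases before the start. In *Inhbe*, *Fgf21* and *Chac1* the core was the same 8 letters, read in the reverse direction. The *Asns* stretch is at chr6:7693214-7693243, minus strand, with the core 23 bases before the RefSeq start and after the GENCODE start, which is 45 bases upstream. A match of letters is a description of the sequence, and binding was not measured.

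Counted reads ranged from 32250518 to 37603073 per liver library and from 26759463 to 42914295 per lung library. Levels are CPM, the counts set relative to library size, scaled with TMM factors over the 12 libraries, and 3 counts stood at 0.0538 to 0.126 CPM. The library labelled null lung 1 went against its label: the summed level of 7 lung epithelium markers was 478 CPM there and 19329 to 26439 CPM in the other 5 lungs, while 6 striated muscle markers summed to 8925 CPM, against 24.1 to 79.3 CPM in the other lungs. The lung tests are therefore also given without it. Null liver 1 also carried muscle transcripts (6862 CPM, against 2.57 to 4.79 CPM in the other livers), but its 8 hepatocyte markers, at 195812 CPM, lay within the range of the other livers (157434 to 231695 CPM). The summed level of each of the 8 marker lists overlapped between WT and null liver. *Man1a2* itself, counted over the whole gene, averaged 69.9 ± 16.5 CPM (SD, n = 3) in WT and 50.7 ± 2.77 CPM in null liver, and 95.9 ± 17.7 and 47.6 ± 4.21 CPM in WT and null lung. Its log2 fold change in lung was -1.01 ± 0.18 (edgeR, adjusted p = 0.0614), and -0.95 ± 0.16 without the library labelled null lung 1 (adjusted p = 0.0043). In liver its log2 fold change was -0.47 ± 0.17 (edgeR, adjusted p = 0.0809), and it was not called there. Counts over a whole gene include its undeleted exons and do not check the deletion of exon 2.

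**Figure D1:**
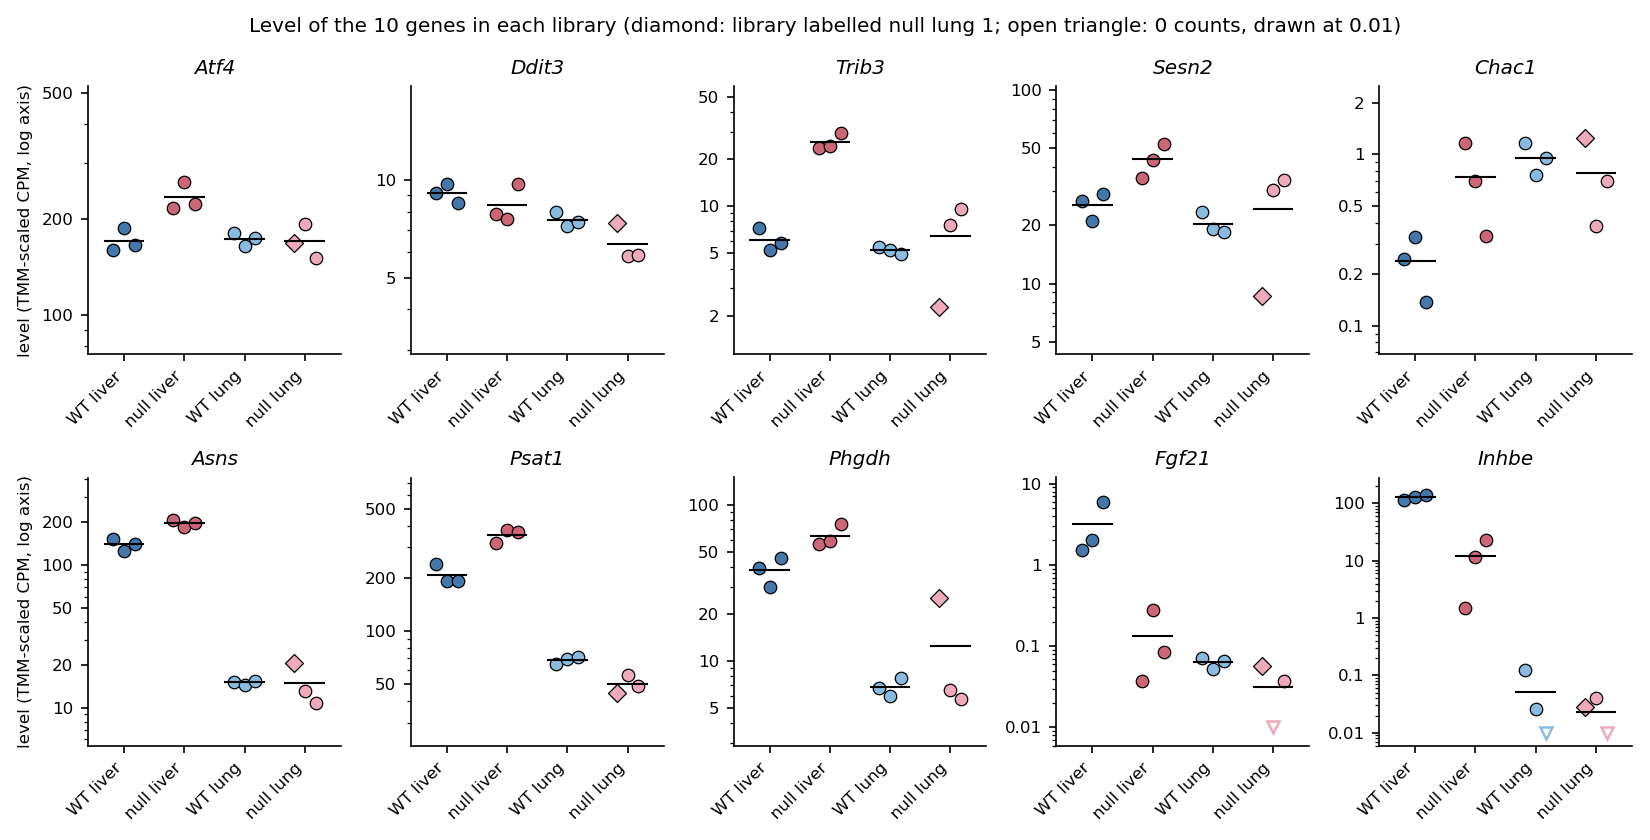
Level of each of the 10 genes in each of the 12 libraries, in TMM-scaled CPM on a log axis that differs between panels, with each group's mean as a bar. In null liver the points of *Trib3* stand between 23.6 and 29.3 CPM, all above WT, and those of *Inhbe* between 1.51 and 22.8 CPM, all below WT, and the diamond of the library labelled null lung 1 stands apart for *Trib3*, *Sesn2* and *Phgdh*.

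*Atf4* mRNA was abundant in every library and was higher in null liver. WT livers had 160.3, 188 and 166 CPM, and null livers 217, 263 and 223 CPM. WT lungs had 182, 166 and 175 CPM and null lungs 168, 194 and 151 CPM. The lowest null liver was above the highest WT liver, and the lung groups overlapped. In liver the log2 fold change (null over WT) was 0.45 ± 0.12 (SE, n = 3 in each group). In a bulk tissue, a change in the number of cells of a type and a change in RNA per cell cannot be told apart.

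*Ddit3* codes for CHOP, the factor that ATF4 and other stress factors raise under lasting stress, and it did not follow *Atf4*. WT livers had 9.15, 9.74 and 8.52 CPM, null livers 7.85, 7.59 and 9.76 CPM, WT lungs 7.98, 7.24 and 7.44 CPM, and null lungs 7.36, 5.82 and 5.87 CPM. The liver groups overlapped, with a log2 fold change of -0.12 ± 0.16. *Ddit3* overlaps the end of *Mars* by 68 bases on the opposite strand, and the strand setting of the counting is not given in the sources used here.

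*Trib3*, a pseudokinase induced by ATF4 and CHOP that feeds back on the pathway, had the largest positive liver fold change of the 9 genes tested there. WT livers had 7.25, 5.24 and 5.85 CPM and null livers 23.6, 24.3 and 29.3 CPM. The null livers were close to one another and all far above WT, at a log2 fold change of 2.07 ± 0.18, or 4.19-fold. The lungs split: WT lungs had 5.52, 5.29 and 4.94 CPM, whereas the null lungs had 2.28, 7.58 and 9.58 CPM, with the library labelled null lung 1 the lowest of all 12.

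*Sesn2* codes for a sestrin, a leucine sensor that restrains mTORC1 and was also higher in null liver. WT livers had 26.8, 21.0 and 29.0 CPM and null livers 35.2, 43.6 and 52.4 CPM, without overlap, at a log2 fold change of 0.77 ± 0.19. WT lungs had 23.5, 19.2 and 18.4 CPM and null lungs 8.65, 30.4 and 34.1 CPM. Again the library labelled null lung 1 was below every other library and the remaining null lungs were above every WT lung.

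*Chac1*, a glutathione-degrading enzyme that is among the most responsive ATF4 targets in cultured cells, was near the limit of detection in liver. WT livers had 7, 8 and 4 counts and null livers 31, 20 and 8 counts, whereas WT lungs had 65, 29 and 43 counts and null lungs 44, 19 and 38 counts. The liver groups touched but did not overlap in CPM (0.137 to 0.330 in WT and 0.336 to 1.17 in null). Over the summed counts, null liver was 3.22 times WT liver (95% interval from the Poisson counts 1.89 to 5.72, which covers counting error only). *Chac1* was too low in liver to enter the edgeR test of that tissue.

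The enzymes that make asparagine and serine were all higher in null liver. *Asns*, asparagine synthetase, was at 153, 125 and 141 CPM in WT and 205, 186 and 198 CPM in null livers, a log2 fold change of 0.49 ± 0.12. WT lungs held 15.2, 14.5 and 15.5 CPM and null lungs 20.6, 13.1 and 10.9 CPM, and the library labelled null lung 1 was the highest lung. Liver was far above lung in both genotypes.

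*Phgdh* codes for the first enzyme of serine synthesis from glycolysis. WT livers had 39.6, 29.9 and 46.1 CPM and null livers 56.3, 58.8 and 75.3 CPM, a log2 fold change of 0.71 ± 0.19. WT lungs had 6.76, 6.005 and 7.83 CPM and null lungs 25.3, 6.55 and 5.76 CPM. The value of the library labelled null lung 1 was above all other lungs and near the liver range. *Phgdh* lies 2.22 Mb from *Man1a2* on chromosome 3, so an effect of other sequence linked to the targeted allele and an effect of its deletion cannot be told apart.

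*Psat1*, the second enzyme of serine synthesis, was higher in null liver and lower in null lung. WT livers had 241, 193 and 192 CPM and null livers 316, 376 and 369 CPM, a log2 fold change of 0.76 ± 0.14. WT lungs had 64.5, 69.2 and 71.1 CPM and null lungs 44.5, 56.1 and 48.6 CPM. Every null liver was above every WT liver and every null lung below every WT lung, with or without the library labelled null lung 1, which went against its label. The lung difference was not called with all libraries, and how many of all genes showed such an order was not counted. The pseudogene *Gm3329* lies within *Psat1*, and reads of the pair could be split between them.

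The hormone genes were both lower in null liver. *Fgf21*, a secreted regulator of fasting metabolism, had 43, 49 and 174 counts in WT and 1, 8 and 2 counts in null livers. These are 1.51, 2.02 and 5.95 CPM against 0.0377, 0.280 and 0.0841 CPM, and WT liver 3 stood above the other WT livers. Over the summed counts, null liver was 23.3-fold lower (95% counting interval 12.8 to 47.2), with 174 of the 266 WT counts from WT liver 3. The fitted log2 fold change was -4.48 ± 0.78, -3.64 ± 0.66 without WT liver 3 and -5.64 ± 0.96 without null liver 2. WT lungs had 4, 2 and 3 counts and null lungs 2, 0 and 2 counts, at or near the floor of 3 counts per library.

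*Inhbe* codes for the beta E subunit of activins and inhibins, a hepatocyte product. WT livers had 114, 130.3 and 141 CPM (3231, 3157 and 4129 counts) and null livers 1.51, 11.8 and 22.8 CPM (40, 337 and 541 counts). The WT livers were alike, and the null livers differed from one another far more than the WT livers did, with null liver 1 the lowest. The log2 fold change was -3.42 ± 0.75, or 10.7-fold lower, -2.89 ± 0.27 without null liver 1, the library with muscle transcripts, and -4.26 ± 0.76 without null liver 3. The part of the muscle transcripts in the result was not tested. WT lungs had 7, 1 and 0 counts and null lungs 1, 2 and 0 counts. WT lungs also held 16764, 666 and 1236 counts of albumin, and the *Inhbe* to albumin ratio of WT liver would give 18.6, 0.741 and 1.37 *Inhbe* counts from these, and the part of liver RNA in the lung counts was not tested. *Gm47200* overlaps *Inhbe* on the opposite strand.

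Of the 9 genes tested between null and WT liver, 8 were called (adjusted p under 0.05 in the edgeR quasi-likelihood test, adjusted by Benjamini-Hochberg over all genes, and a change of at least 1.2-fold), with 6 higher and 2 lower. Of all 14343 genes tested there, 26.9% were called, 13.5% as higher and 13.4% as lower. The 2 lower were *Inhbe*, which was chosen on this contrast, and *Fgf21*, which passed the filter on low counts through the WT livers alone, so nothing is read from these counts. Without null liver 1, 8 of 9 were called, beside 23.8% of all genes. The count was 5 without WT liver 1 (14.8% of all genes), 3 without WT liver 2 (15.6%), 3 without WT liver 3 (11.3%) and 4 with all 12 libraries in 1 fit (11.9%). The median log2 fold change over all genes was 0.02. With upper-quartile factors in place of TMM, the median over all genes was -0.09 and the calls split into 1434 higher and 2666 lower, in place of 1931 and 1925, and *Atf4* was the member no longer called.

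**Figure D2:**
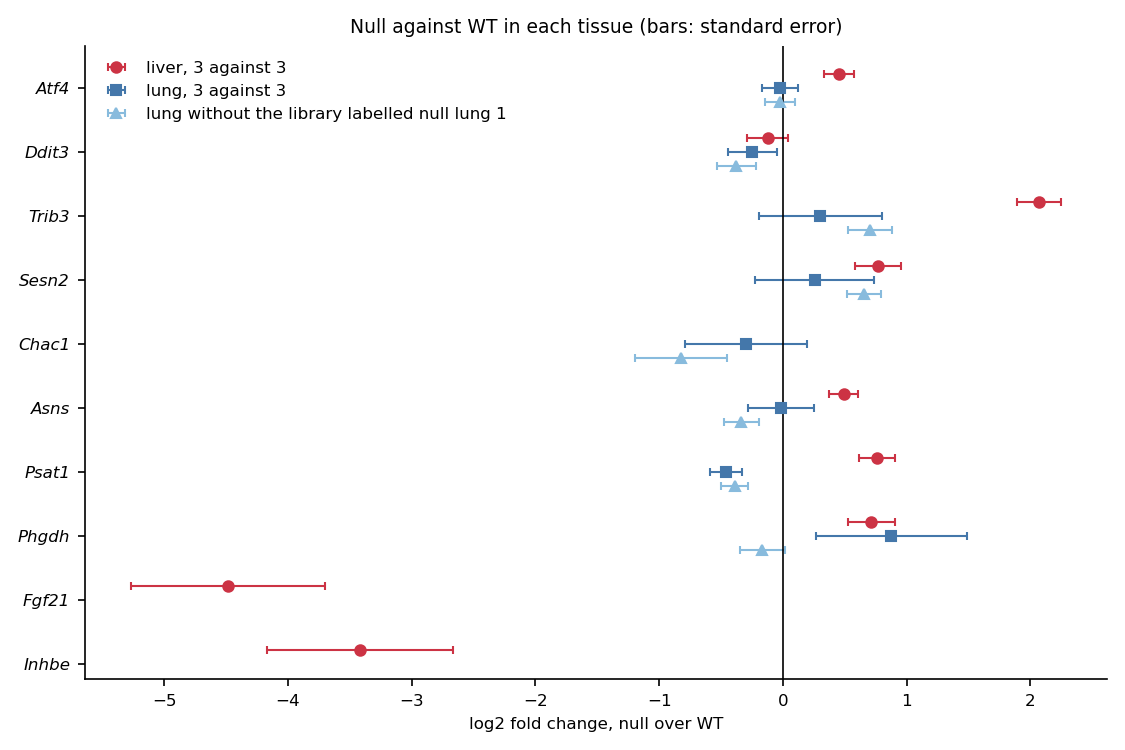
Log2 fold change of null over WT with its standard error, in liver, in lung and in lung without the library labelled null lung 1, and genes too low to be tested have no point. *Trib3* and *Sesn2* stand at 0.70 and 0.66 in lung without that library, *Psat1* at 0.76 in liver and -0.46 in lung, and the bars of *Inhbe* and *Fgf21* are widest in liver.

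In the lung, none of the 8 members tested was called between null and WT when all 6 libraries were used. By edgeR's quasi-likelihood test, 0.327% of all 15591 genes were called. An unadjusted p under 0.05 was found for 1 of the 8 members, beside 25.0% of all genes. It was *Psat1*, at a log2 fold change of -0.46 ± 0.13 (adjusted p = 0.116). DESeq2 also called 0 members, beside 12.1% of all genes. Without the library labelled null lung 1, edgeR called 37.0% of all genes, 18.0% as higher and 19.0% as lower, and 3 of the 8 members. *Trib3* rose (0.70 ± 0.18, adjusted p = 0.0186), *Sesn2* rose (0.66 ± 0.14, adjusted p = 0.0098) and *Psat1* fell (-0.39 ± 0.11, adjusted p = 0.0246). A share of 3 in 8 is near the share of all genes called. For these 3 members both remaining null lungs lay on the same side of all WT lungs. The same held for *Ddit3*, *Chac1* and *Asns*, which were not called, and for *Fgf21*, near the floor of counts. How many of all genes showed such an order was not counted, so nothing is read from it. The summed markers of 3 of the 8 cell type lists also did not overlap between these 2 null lungs and the WT lungs: 7 neutrophil markers summed to 473 to 487 CPM against 181 to 295 CPM, 6 striated muscle markers to 65.6 to 79.3 against 24.1 to 39.2 CPM, and 5 bile duct markers, which airway epithelium also expresses, to 597 to 691 against 712 to 913 CPM. Their part in the result was not tested.

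The other lung members did not pass the test in either set of libraries. *Atf4* stood at -0.03 ± 0.15 with all libraries and at -0.02 ± 0.12 without that library. *Asns* moved from -0.02 ± 0.26 to -0.34 ± 0.14 (adjusted p = 0.0917) and *Ddit3* from -0.25 ± 0.20 to -0.38 ± 0.16 (adjusted p = 0.0937). *Chac1* moved from -0.30 ± 0.49 to -0.82 ± 0.37 (adjusted p = 0.118). *Phgdh* changed sign, from 0.88 ± 0.61 to -0.17 ± 0.18, since its high lung value was that of 1 library. *Trib3* stood at 0.30 ± 0.50 and *Sesn2* at 0.26 ± 0.48 with all libraries. *Fgf21* and *Inhbe* were too low in lung to pass the edgeR filter, and DESeq2 fitted them but gave them no adjusted p. Whether null and WT differed more in one tissue than in the other was not tested, since the null against WT liver values serve as a description.

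**Figure D3:**
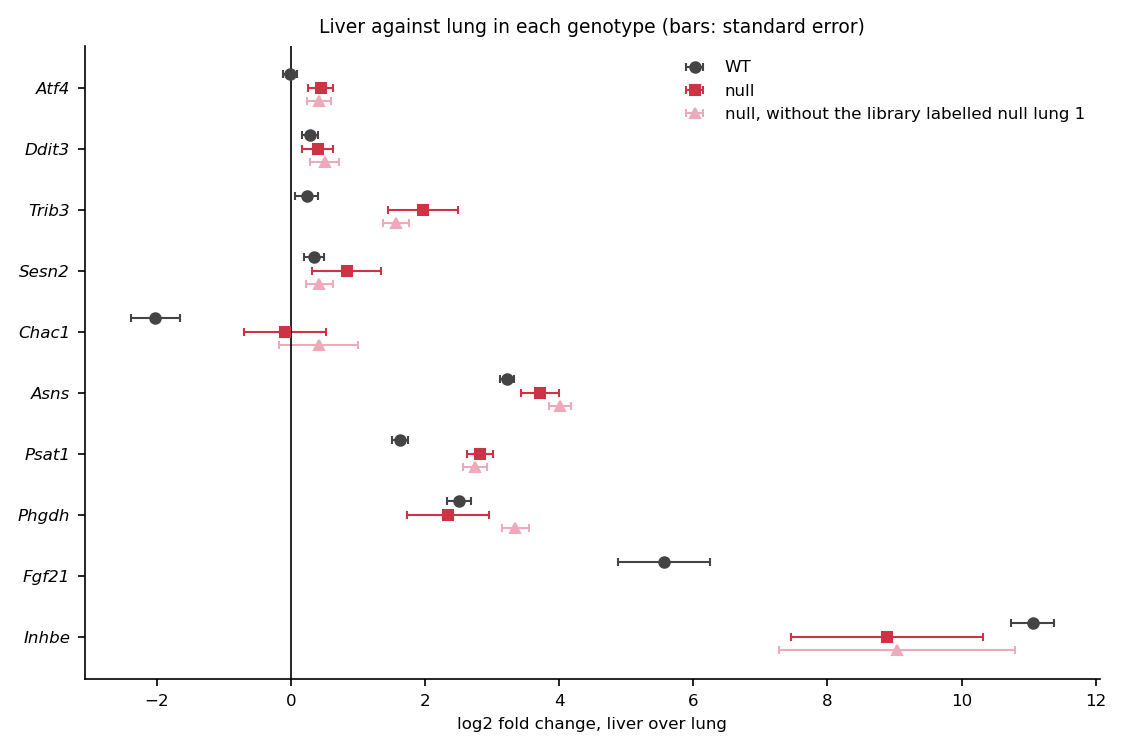
Log2 fold change of liver over lung with its standard error in WT mice, in null mice, and in null mice without the library labelled null lung 1. *Asns*, *Psat1*, *Phgdh* and *Inhbe* lie to the right of 0 in all 3 series, *Chac1* lies at -2.02 in WT mice, and the *Inhbe* values rest on 8 lung counts in WT and 3 in null mice.

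The comparison of liver with lung in WT mice gives the tissue pattern of the set without the deletion. *Inhbe*, *Fgf21* and *Chac1* passed the filter on low counts through 1 tissue alone, so their calls are not counted and they are given by their counts. Of the other 7 members, 3 were called between WT liver and WT lung by edgeR, all higher in liver, beside 77.0% of all 15635 genes (37.2% higher and 39.8% lower). The amino acid enzymes were higher in liver: *Asns* by a log2 fold change of 3.22 ± 0.11 (adjusted p = 1.13e-08), *Phgdh* by 2.503 ± 0.18 (adjusted p = 1.07e-06) and *Psat1* by 1.63 ± 0.12 (adjusted p = 1.42e-06). For each of these enzymes the lowest WT liver was above the highest WT lung. *Fgf21* had 266 counts over the WT livers and 9 over the WT lungs, a ratio of 50.2 (95% counting interval 26.0 to 111).

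*Chac1* was lower in every WT liver than in every WT lung, with 19 counts over the livers and 137 over the lungs, a ratio of lung to liver of 4.25 (95% counting interval 2.62 to 7.27). *Inhbe* had 10517 counts over the WT livers and 8 over the WT lungs, a ratio of 2233 (95% counting interval 1133 to 5173). Of the 8 lung counts, 7 were in WT lung 1, which also held 16764 counts of albumin. The part of liver RNA in the lung counts, and so in this ratio, was not tested. The members that act within the response itself did not pass the test. *Atf4* stood at -0.01 ± 0.10 (adjusted p = 0.926), *Trib3* at 0.23 ± 0.17 (adjusted p = 0.219) and *Ddit3* at 0.29 ± 0.13 (adjusted p = 0.0619). *Sesn2* stood at 0.34 ± 0.15 (adjusted p = 0.0549), and with the replicate number of the labels as a block it was called (adjusted p = 0.037), the only member whose call changed. A p that misses the threshold does not show that the levels are equal.

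Between null liver and null lung, 4 of the same 7 members were called by edgeR, all higher in liver, beside 45.8% of all 15508 genes (21.6% higher and 24.2% lower). They were *Asns* (3.72 ± 0.28, adjusted p = 0.00044), *Psat1* (2.82 ± 0.20, adjusted p = 0.000376), *Phgdh* (2.34 ± 0.62, adjusted p = 0.0236) and *Trib3* (1.97 ± 0.52, adjusted p = 0.0239). Without the library labelled null lung 1, the same 4 were called, beside 60.7% of all genes (29.6% higher and 31.2% lower). *Phgdh* then stood at 3.35 ± 0.21, *Psat1* at 2.74 ± 0.18, *Trib3* at 1.57 ± 0.20 and *Asns* at 4.01 ± 0.16. *Phgdh* and *Trib3* lost their calls when null liver 1, null liver 2, null liver 3 or null lung 2 was left out, and *Phgdh* also without null lung 3. *Trib3* was called in null mice and not in WT mice, and the difference between the genotypes was not tested. *Inhbe* had 918 counts over the null livers and 3 over the null lungs, a ratio of 538 (95% counting interval 184 to 2614), and 2 without the library labelled null lung 1, a ratio of 603 (167 to 4989). *Chac1*, lower in liver in WT mice, had 59 counts over the null livers and 101 over the null lungs. Its sign turned with the library labelled null lung 1, from -0.08 ± 0.61 with it to 0.42 ± 0.59 without it. *Atf4*, *Ddit3* and *Sesn2* did not pass the edgeR test in null mice, at 0.45 ± 0.19 (adjusted p = 0.0977), 0.40 ± 0.23 (adjusted p = 0.208) and 0.83 ± 0.51 (adjusted p = 0.229). They stood at 0.43 ± 0.18, 0.51 ± 0.22 and 0.43 ± 0.20 without the library labelled null lung 1 and did not pass either.

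Per kilobase of GENCODE M21 exon, *Atf4* was the highest of the 10 genes in all 4 groups, at 72.7 ± 6.21 CPM per kb (SD, n = 3) in WT liver and 99.4 ± 10.4 in null liver. In WT liver it was followed by *Asns* (50.9 ± 5.15) and *Psat1* (49.1 ± 6.55), whose ranges overlapped, and by *Inhbe* (24.1 ± 2.61) and *Phgdh* (15.5 ± 3.29). *Inhbe* was thus at rank 4 in WT liver. In null liver it was at rank 8, at 2.26 ± 2.00 CPM per kb, below *Ddit3* (4.90 ± 0.691), and *Fgf21* was last. In WT lung the order after *Atf4* was *Psat1* (16.05 ± 0.799), *Sesn2* (5.86 ± 0.788) and *Asns* (5.51 ± 0.186), the last pair overlapping, and *Inhbe* was last. These ranks hold for GENCODE lengths only. That annotation starts *Inhbe* 2563 bases and *Psat1* 22278 bases upstream of a RefSeq start, and ranks with RefSeq lengths were not computed.

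The other genes of the ATF4 pathway were followed as 48 genes in 6 roles. In liver, 18 of the 48 were called between null and WT, 15 higher and 3 lower, beside the 26.9% of all genes, with a median log2 fold change of 0.22. This contrast is a description, as for the members. The kinases of eIF2alpha *Eif2ak4* (GCN2, which senses uncharged tRNA) and *Eif2ak3* (PERK, which senses misfolded protein in the endoplasmic reticulum) stood at 1.15 ± 0.16 and 0.99 ± 0.12. The phosphatase subunit *Ppp1r15a* (GADD34), which reverses the phosphorylation, stood at 0.90 ± 0.21.

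Among the partner factors in liver, *Atf3* stood at 2.94 ± 0.56, *Nupr1* at 1.25 ± 0.31 and *Cebpg* at -0.55 ± 0.15. Of the other ATF4 targets, 5 of 7 were called and all 5 were higher, with *Ddit4*, an inhibitor of mTORC1, at 1.94 ± 0.37, *Vldlr*, a lipoprotein receptor, at 1.42 ± 0.41 and *Herpud1*, a protein of endoplasmic reticulum degradation, at 1.32 ± 0.20. The amino acid enzymes were called in 2 of 8 cases, *Pycr1* of proline synthesis (0.94 ± 0.23) and *Psph*, the last enzyme of serine synthesis (0.65 ± 0.11). The transporters *Slc38a2* (1.10 ± 0.28) and *Slc7a1* (0.87 ± 0.14) were the 2 called of 9. The tRNA synthetases went the other way where they were called: *Lars* at -0.50 ± 0.09 and *Iars* at -0.41 ± 0.10 were the 2 of 12, and the median of the 12 was 0.11.

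**Figure D4:**
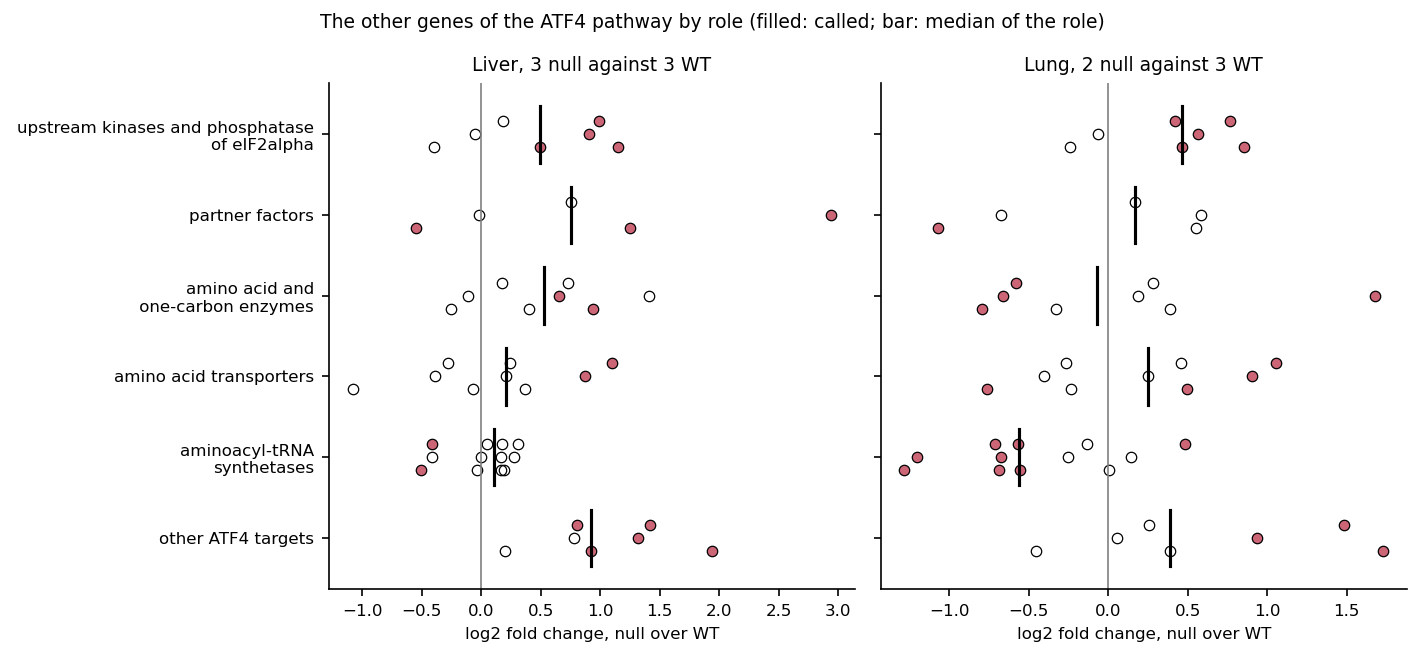
Log2 fold change of null over WT for the other 48 pathway genes by role, in liver and in lung without the library labelled null lung 1, with called genes filled and the median of each role as a bar. The median of the other ATF4 targets is at 0.92 in liver and 0.39 in lung, and that of the tRNA synthetases at 0.11 in liver and -0.56 in lung.

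In the lung with all libraries, edgeR called 0 of the 48 pathway genes, beside 0.327% of all genes. An unadjusted p under 0.05 was found for 13 of the 48, beside 25.0% of all genes, and DESeq2 called 7, beside 12.1%, so both counts were near the background. Without the library labelled null lung 1, edgeR called 25 of 48, 13 higher and 12 lower, beside 37.0% of all genes, with a median of 0.10. The tRNA synthetases made up 7 of the 12 that fell, led by *Lars* (-1.28 ± 0.12, adjusted p = 0.000705) and *Iars* (-1.21 ± 0.22, adjusted p = 0.00554), while *Sars* rose (0.48 ± 0.09, adjusted p = 0.0058). All 5 called genes of the eIF2alpha group rose, with *Ppp1r15a* highest at 0.85 ± 0.15 (adjusted p = 0.00457). Of the amino acid and one-carbon enzymes, *Bcat1* rose (1.68 ± 0.36, adjusted p = 0.0102), and *Psph*, *Mthfd2* and *Aldh18a1* fell. The transporters *Slc7a11* (1.05 ± 0.26, adjusted p = 0.0165), *Slc38a2* (0.91 ± 0.12, adjusted p = 0.00181) and *Slc7a5* (0.50 ± 0.13, adjusted p = 0.0222) rose. *Slc6a9* fell (-0.77 ± 0.21, adjusted p = 0.0233). *Herpud1* (1.73 ± 0.10, adjusted p = 0.000319), *Ddit4* (1.48 ± 0.27, adjusted p = 0.00545) and *Sqstm1* (0.94 ± 0.09, adjusted p = 0.000777), an autophagy receptor, rose, and *Atf5*, a factor close to ATF4, fell (-1.07 ± 0.16, adjusted p = 0.00254).

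Between the tissues of WT mice, 40 of the 48 were called by edgeR, 29 higher and 11 lower in liver, beside the 77.0% of all genes. All 8 amino acid and one-carbon enzymes were higher in liver, led by *Cth* of cysteine synthesis (6.24 ± 0.23, adjusted p = 1.93e-08) and *Gpt2*, an alanine aminotransferase (3.36 ± 0.24, adjusted p = 1.23e-06). Of the tRNA synthetases, 10 were higher and 1 was lower. The partner factors split, with *Atf5* higher (4.01 ± 0.12, adjusted p = 6.79e-09) and *Nupr1* lower in liver (-4.43 ± 0.14, adjusted p = 1.04e-08). In null mice, 24 of 48 were called, 21 higher and 3 lower in liver, beside 45.8% of all genes. Without the library labelled null lung 1 there were 35, 27 higher and 8 lower, beside 60.7%.

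The paralogues *Sesn1*, *Sesn3*, *Chac2*, *Trib1* and *Trib2* were compared with the members they resemble. *Sesn1*, a sestrin that is not an ATF4 target in most cells and is raised by p53 and FoxO factors, stood at 2.42 ± 0.21 in null liver, above *Sesn2*. In lung it rose by 2.34 ± 0.18 with all libraries (edgeR, adjusted p = 0.0405) and was the only one of the 5 called, beside 0.327% of all genes, while DESeq2 called 3, beside 12.1%. No paralogue was called with DESeq2 size factors, with every gene of at least 1 count, with the replicate block, or when any library other than null lung 1 was left out. *Sesn1* averaged 40.8 ± 7.48 CPM in WT lung and 206 ± 17.1 CPM in null lung. Without the library labelled null lung 1, *Sesn3* rose as well (1.06 ± 0.23, adjusted p = 0.0108) and *Chac2* fell (-1.19 ± 0.28, adjusted p = 0.0155). *Chac2* stood at -1.58 ± 0.16 in null liver, where *Chac1* counts were higher.

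*Inhbe* forms activin E, and the genes of the activin axis were followed as ligand subunits, receptors and inhibitors. *Inhbc*, the other subunit made mainly by hepatocytes, lies 1.91 kb from *Inhbe*. It had 30.8, 47.8 and 39.0 CPM in WT livers and 7.32, 14.2 and 6.39 CPM in null livers, without overlap, at a log2 fold change of -2.07 ± 0.31. In the lungs it had at most 2 counts in a library. Of the subunits that many tissues make, *Inhbb* stood at 2.02 ± 0.26 and *Inhba* at -0.80 ± 0.23 in null liver.

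Of the 11 genes of the axis tested in liver, 6 were called, 3 higher and 3 lower, beside 26.9% of all genes. Leaving out 1 library gave 2 to 5, with 2 without WT liver 2 (15.6% of all genes) or WT liver 3 (11.3%). *Bambi*, a decoy receptor, and *Fstl3*, a follistatin that binds activins, stood at 1.26 ± 0.31 and 1.24 ± 0.27, and the receptor *Acvr1* at -0.44 ± 0.12. In the lung edgeR called 0 of 11 with all libraries. An unadjusted p under 0.05 was found for 3 of the 11, beside 25.0% of all genes, and DESeq2 called 2 of 12, beside 12.1%. Without the library labelled null lung 1, 5 were called, beside 37.0%: *Bambi* rose (1.33 ± 0.10, adjusted p = 0.000542), as did *Acvr2a* (0.79 ± 0.16, adjusted p = 0.00807) and *Acvr1* (0.54 ± 0.13, adjusted p = 0.0171), and *Fstl3* fell (-0.87 ± 0.12, adjusted p = 0.00198), as did *Fst* (-0.83 ± 0.25, adjusted p = 0.0325). *Klb*, the co-receptor that FGF21 needs, stood at 0.33 ± 0.09 in null liver and *Fgfr4* at -0.69 ± 0.18. *Klb* had 2368, 1849 and 2328 counts in the WT livers and 10, 3 and 4 counts in the WT lungs.

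Among the neighbours of *Inhbe*, *Inhbc* was the other gene called in null liver. *Inhbe* is at chr10:127348857-127354411 (minus strand) and *Ddit3* at chr10:127290774-127296288 (plus strand), 52.6 kb apart in GENCODE M21 on GRCm38, and 8 other protein-coding genes lie within 100 kb of *Inhbe*. Apart from *Inhbe* and *Inhbc*, the genes there stood between -0.57 ± 0.41 (*Kif5a*) and 0.13 ± 0.36 (*Gli1*) in null liver. *Mars*, which codes for methionyl-tRNA synthetase, stood at 0.00 ± 0.10 and *R3hdm2* at -0.07 ± 0.09.

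**Figure D5:**
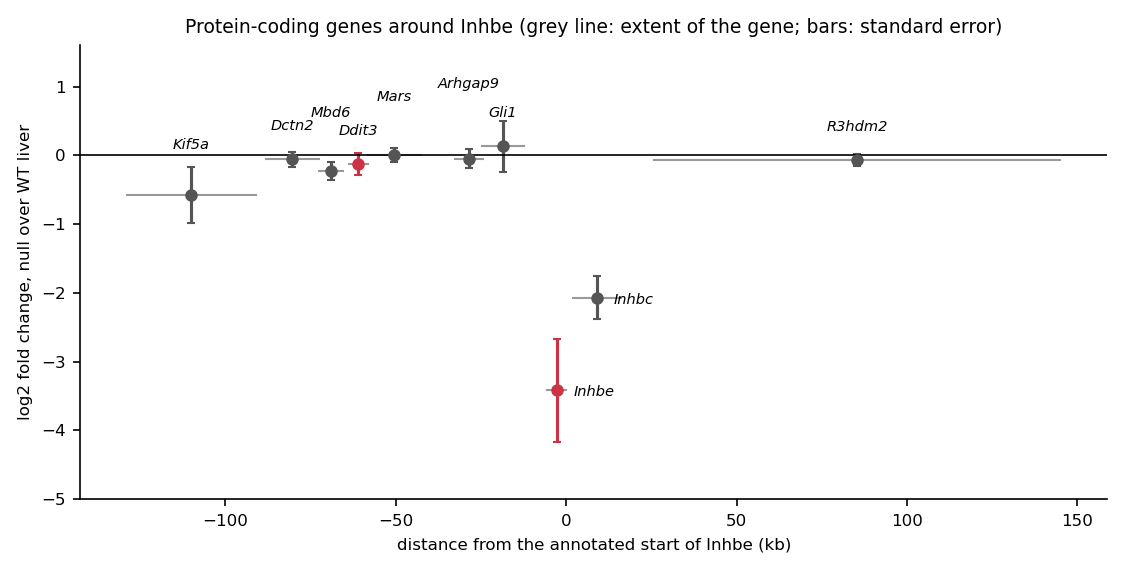
Log2 fold change of null over WT liver for the protein-coding genes within 100 kb of *Inhbe*, plotted at the middle of each gene against its distance from the annotated start of *Inhbe*, with standard errors. *Inhbe* at -3.42 and *Inhbc* at -2.07 stand below the others, which lie between -0.57 and 0.13.

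Over the 12 libraries, the genes whose log2 level was most like that of *Inhbe*, among 12226 genes present in WT liver, were *Cyp2d37-ps* (Pearson's r = 0.987), *2010003K11Rik* (r = 0.986), *Pex19* (r = 0.978), *4632428C04Rik* (r = 0.977) and *Adam23* (r = 0.977). These values are a description, and the points share the contrast of liver with lung and of null with WT liver. Over the 6 livers alone the same 5 genes stood at r = 0.979, 0.970, 0.935, 0.920 and 0.989.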

How the data were processed

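Libraries were made from liver and lung of 3 WT and 3 null newborns with a poly-A, stranded TruSeq kit. The deposited values are raw counts of reads per gene, 1 table per library. The submitters' processing notes name mm10, STAR 2.5.2a, FastQC and DESeq2; the counting program and its strand setting are not given in the sources used here. Each table had 24421 rows, of which 27 symbols had been turned into dates and 4 were repeated, and 0 other columns of per-sample values were present. The set of 10 genes and the gene lists were chosen with earlier results of these data known.

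The counts were filtered (filterByExpr), scaled by TMM and fitted per contrast with edgeR 4.0.16 (R 4.3.3, quasi-likelihood test), with Benjamini-Hochberg adjustment over all genes tested. Genes were called at an adjusted p under 0.05 and at least 1.2-fold. The alternatives were DESeq2 1.42.0, other size factors, other filters on low counts, no minimum fold, all 12 libraries in 1 fit, a block on the replicate number, and each library left out in turn. Genes were named by rule: all 10 members, *Man1a2*, up to 3 called genes in each direction per list (per role in the pathway), the genes within 100 kb of *Inhbe*, and the 5 most correlated with it. Symbols were matched to GENCODE M21 (GRCm38) for 95.6% of rows.

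No pair of replicates agreed within sampling noise. In the tissue contrasts the replicate numbers were taken to pair the samples, since the same mice gave both tissues by the study's methods. Deviations of same-numbered liver and lung correlated at 0.184 to 0.263 in WT and 0.366 to 0.468 in null mice. Unlike-numbered pairs reached 0.251 (null liver 3 with null lung 2) and 0.233 (null liver 2 with null lung 3), and were negative otherwise. The pair at 0.468, null liver 1 with null lung 1, both carried muscle transcripts. The tissue p-values come from fits without this pairing, except where the block is named. Nothing in the labels ties a replicate number to a litter, and each p-value sets a difference between groups against the spread between these libraries. Counting intervals and the floor of 3 counts cover counting error only.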

Additional observations from a re-analysis of the deposited data

Results flagged for a closer look

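*Psat1*, the second enzyme of serine synthesis, differed in opposite directions between the tissues. Every null liver (316 to 376 CPM) was above every WT liver (192 to 241 CPM), and every null lung (44.5 to 56.1 CPM) was below every WT lung (64.5 to 71.1 CPM). With all libraries, the library labelled null lung 1 included, the log2 fold change of null over WT was 0.76 in liver and -0.46 in lung. The lung value minus the liver value was -1.21. In lung *Psat1* was not called with all libraries, and it stood at -0.39 without the library labelled null lung 1. The liver value is a description, and *Psat1* was picked from the members for this opposite order. The difference between the tissues was not tested, and how many of all genes showed such an order was not counted.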

How the results depend on the processing

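The number of members called between null and WT lung was 0, beside 0.327% of all genes. It was 0 to 3 when 1 library was left out, with 3 only without the library labelled null lung 1, beside 37.0% of all genes. Of the members tested in liver, 8 were called, beside 26.9% of all genes, and 4 with all 12 libraries in 1 fit, beside 11.9%. Leaving out 1 library gave 3 to 8. The count was 5 without WT liver 1 (14.8% of all genes), 3 without WT liver 2 (15.6%) and 3 without WT liver 3 (11.3%). Of the 7 members that passed the filter within both tissues, 3 were called between the WT tissues, beside 77.0% of all genes. The count was also 3 where genes needed 10 counts in every library, a filter that leaves out genes low in 1 tissue. With *Inhbe*, *Fgf21* and *Chac1*, which passed the filter through 1 tissue alone, the count was 6. Leaving out 1 library then gave 6 to 7, beside 11659 to 12116 calls over all genes, and nothing is read from these counts. Between the null tissues 4 of the same 7 were called, beside 45.8% of all genes, and 5 with *Inhbe*. With *Inhbe* included, leaving out 1 library gave 3 to 5, beside 4458 to 9554 calls over all genes. There were 3 without null liver 1, 2 or 3 or without null lung 2, where *Phgdh* and *Trib3* were lost. Other than by construction, the cause was not tested.

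The sign of a log2 fold change turned in these cases. *Atf4* between the WT tissues went from -0.01 to 0.0019 with DESeq2 size factors and ranged from -0.075 to 0.048 when 1 library was left out. In null against WT lung, leaving out 1 library gave -0.11 to 0.053 for *Atf4*, -0.82 to 0.031 for *Chac1*, -0.091 to 0.70 for *Trib3*, -0.063 to 0.66 for *Sesn2*, -0.34 to 0.16 for *Asns* and -0.17 to 1.21 for *Phgdh*. *Chac1* between the null tissues ranged from -0.57 to 0.42.

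Over all genes, 51 were called in lung, 2355 by DESeq2, 2 with DESeq2 size factors, 109 with upper-quartile factors, 210 with at least 10 counts in every library, 0 with every gene of at least 1 count, 2284 with all 12 libraries in 1 fit and 0 to 5881 when 1 library was left out. In liver the 3856 calls became 1921 with all 12 libraries in 1 fit and 1641 to 3451 when 1 was left out, and the 7096 calls between the null tissues became 4458 to 9554. Of the 48 pathway genes, 0 were called in lung, 7 by DESeq2 and 9 with all 12 libraries in 1 fit, and in liver 18, 11 with all 12 libraries in 1 fit and 9 without WT liver 3.

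With the replicate number as a block, 0 members were called in lung and 8 in liver, and over all genes 0 in lung and 3304 in liver. The deviations of same-numbered WT and null libraries correlated at -0.043 to 0.099 in lung and -0.024 to 0.143 in liver, so these numbers were not taken to pair them. In the tissue contrasts, the block changed the call of *Sesn2* in WT mice and of no other member.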
